A study of Arabidopsis thaliana with 6 samples.

Results

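AUR1, AUR2 and AUR3 for Aurora kinases, SIM for an inhibitor of cyclin-dependent kinases and PRL for a subunit of the replication licensing helicase were examined in Arabidopsis thaliana roots exposed to excess boron. These are 5 of the 13355 genes with a probe set of their own on the array, and they were chosen as the probe sets that the array's annotation assigns to those symbols, 1 for each gene. Boric acid roots came from seedlings grown for 5 days on diluted Murashige-Skoog agar and moved to plates with 5 mM boric acid. Control roots are given as such by title, source and treatment, although the growth protocol entered for them also names the boric acid plates. Both groups are labelled as sampled at 12 h, with 3 Affymetrix ATH1 arrays per group numbered 1 to 3 in the labels as biological replicates. The labels name no genotype or accession, and all arrays carry bulk RNA of the root.

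Aurora kinases phosphorylate histone H3 and spindle proteins during mitosis. In Arabidopsis AUR1 and AUR2 act at the spindle and in orienting formative divisions, and AUR3 is found at centromeres. SIM (SIAMESE) binds cyclin-dependent kinase complexes and holds back mitosis in cells that go on to replicate DNA without dividing, first described in leaf hairs. PRL (PROLIFERA, MCM7) belongs to the ring of minichromosome maintenance proteins that unwinds DNA at replication origins. In a root, dividing cells lie in the meristem at the tip. In bulk RNA, fewer dividing cells and less transcript per dividing cell cannot be told apart.

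All 3 Aurora genes and SIM were lower on every boric acid array than on every control array, as were 10.5% of all probe sets. The gap between the groups was 0.41 log2 units for AUR1, 0.32 for AUR3, 0.12 for AUR2 and only 0.0057 for SIM. Their means were lower by 0.75 to 0.91 on the log2 scale, which is 53.2% to 59.3% of the control level. None of the 5 genes passed an adjusted p of 0.05 in the comparison of 3 against 3 arrays (limma, Benjamini-Hochberg over 22746 probe sets), where 3.25% of probe sets did and 1.34% did so downward. All 4 of the lower genes had an unadjusted p under 0.05, against 7.6% of probe sets lower at that level. The genes were chosen with earlier results of these data known, so the shares over all probe sets are a description and not a test. With the replicate number as a block, AUR1, AUR3 and SIM fell (3.85% of probe sets were called lower in that fit) and AUR2 did not pass. PRL had nearly equal group means, and 1 control array set that.

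AUR1 (AT4G32830, chromosome 4) had log2 levels of 2.59, 2.88 and 2.52 on boric acid arrays 1 to 3, against 3.73, 3.36 and 3.29 on control arrays 1 to 3. The groups did not overlap, and 0.41 log2 units lay between the highest boric acid array and the lowest control array. Such a complete separation downward was seen in 10.5% of all probe sets. The means were 2.67 ± 0.19 in boric acid and 3.46 ± 0.24 in control (SD, n = 3 each). The change was -0.79 ± 0.16 (SE, limma, adjusted p = 0.0586), with a 95% interval of -1.19 to -0.40. AUR1 stood at place 870 by p-value, and 740 probe sets passed. With the replicate block its adjusted p was 0.0346. On all arrays the gene was well above the negative control probe sets, which reached at most 0.22.

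AUR2 (AT2G25880, chromosome 2), the near relative of AUR1, had 1.93, 2.03 and 2.41 on boric acid arrays, against 3.203, 3.13 and 2.53 on control arrays. Boric acid 3 and control 3 came within 0.12 of each other, while the difference within the pair numbered 1 was -1.27. The means were 2.12 ± 0.25 and 2.95 ± 0.37 (SD, n = 3 each) in boric acid and control. The change of -0.83 ± 0.22 (SE) had an adjusted p of 0.116 in limma, and 0.0940 with the replicate block. AUR2 was the only Aurora gene whose standard error did not shrink with the block, at 0.24.

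AUR3 (AT2G45490, chromosome 2) was the least bright of the Aurora probe sets, with 0.99, 1.61 and 1.58 on boric acid arrays, against 1.92, 2.29 and 2.22 on control arrays. The median over tested probe sets was 1.45 to 1.49 by array, and AUR3 on boric acid 1 lay below it. Each group had its lowest value on the array numbered 1, and the differences within the pairs were alike at -0.93, -0.68 and -0.64. The means were 1.39 ± 0.35 in boric acid and 2.15 ± 0.20 in control (SD, n = 3 each). AUR3 had a change of -0.75 ± 0.20 (SE, limma, adjusted p = 0.116), and with the block its SE was 0.12 and its adjusted p 0.0191. The changes of the 3 Aurora genes lay closer together than the SE of any of them.

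SIM (AT5G04470, chromosome 5) had log2 levels of 3.89, 4.78 and 4.90 on boric acid arrays, against 4.90, 5.86 and 5.54 on control arrays. The groups were separate by only 0.0057, since control 1 lay just above boric acid 3. Within the pairs numbered 1, 2 and 3, the differences were -1.01, -1.08 and -0.64. The means were 4.52 ± 0.55 and 5.44 ± 0.49 (SD, n = 3 each) in boric acid and control. The change was -0.91 ± 0.34 (SE, limma, adjusted p = 0.252), with a 95% interval of -1.74 to -0.08. With the replicate block the SE was 0.13, the interval -1.23 to -0.59 and the adjusted p 0.0161. The mean of this inhibitor gene was lower in boric acid, as were the means of the mitotic kinase genes.

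PRL (AT4G02060, chromosome 4) had 1.85, 1.94 and 2.04 on boric acid arrays, against 1.00, 2.33 and 2.62 on control arrays. Boric acid arrays lay inside the range of the controls, above control 1 and below controls 2 and 3. The means were 1.94 ± 0.09 in boric acid and 1.99 ± 0.86 in control (SD, n = 3 each), so the spread of the controls was about as large as any change seen in the other genes. The change was -0.04 ± 0.40 (SE, limma, adjusted p = 0.979), and its 95% interval of -1.01 to 0.92 takes in a change as large as that of SIM. Without control 1 the change was -0.54 ± 0.14 (SE, adjusted p = 0.0956).

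**Figure D1:**
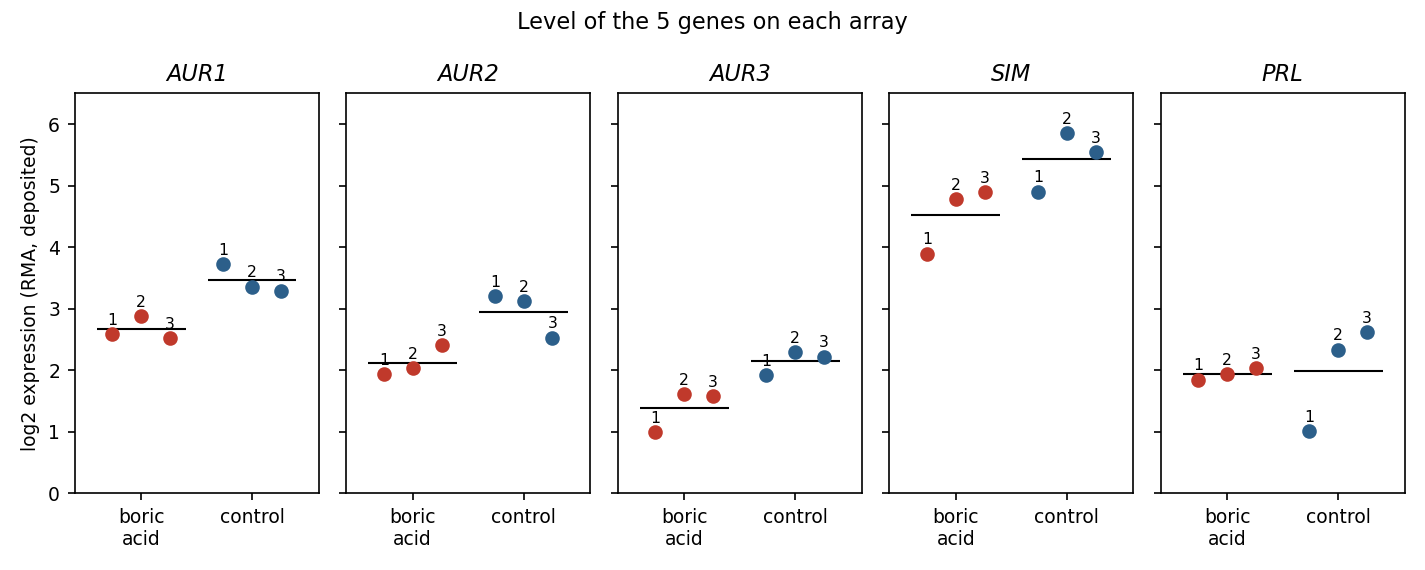
Deposited log2 expression of AUR1, AUR2, AUR3, SIM and PRL on each array, with boric acid left of control, points numbered by replicate and a line at each group mean (n = 3). For AUR1, AUR2, AUR3 and SIM every boric acid point is below every control point, while for PRL control 1 is at 1.00 and the other controls are at 2.33 and 2.62.

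The 5 genes did not vary alike between arrays of a group. SIM deviated from its group mean by -0.63 on boric acid 1 and by -0.53 on control 1, and it was 0.11 to 0.42 above the mean on the other 4 arrays. AUR3 followed the same order of sign, with deviations of -0.40 and -0.22 on boric acid 1 and control 1, and of 0.08 to 0.21 on the others. AUR1 did not, with -0.08 on boric acid 1 and 0.27 on control 1. PRL had its largest deviation, -0.98, on control 1, and only -0.09 on boric acid 1.

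The difference between 3′ and 5′ actin probe sets, a measure of RNA degradation on such arrays, was 2.96 on boric acid 1 and 2.60 on control 1, against 1.23 to 1.71 on the other arrays. It moved with the dips of SIM and AUR3, on boric acid and control arrays alike. The dip of PRL on control 1 was also on an array with a high actin difference. Over 6 arrays, deviations from group means had r with it of -0.91 for SIM, -0.92 for AUR3 and -0.70 for PRL. The r was 0.42 for AUR1 and 0.06 for AUR2. The part of RNA quality in these levels was not tested. Group means of the actin difference were 1.98 ± 0.87 in boric acid and 1.83 ± 0.70 in control (SD, n = 3 each). An exact two-sided permutation test gave p = 0.7, where 3 against 3 arrays cannot go below 0.1. With this difference as a covariate the changes were -0.81 for AUR1, -0.83 for AUR2, -0.70 for AUR3 and -0.82 for SIM, with adjusted p of 0.0301, 0.0778, 0.0202 and 0.0354 in limma. Without both arrays numbered 1 the changes of SIM and AUR3 were -0.86 (adjusted p = 0.0327) and -0.66 (adjusted p = 0.0357). AUR1 and AUR2 were then at -0.62 (adjusted p = 0.0837) and -0.61 (adjusted p = 0.215), and PRL was at -0.49 (adjusted p = 0.128). Of all 22746 probe sets, 789 were called lower with the covariate and 675 without the arrays numbered 1, against 304 in the main fit.

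**Figure D2:**
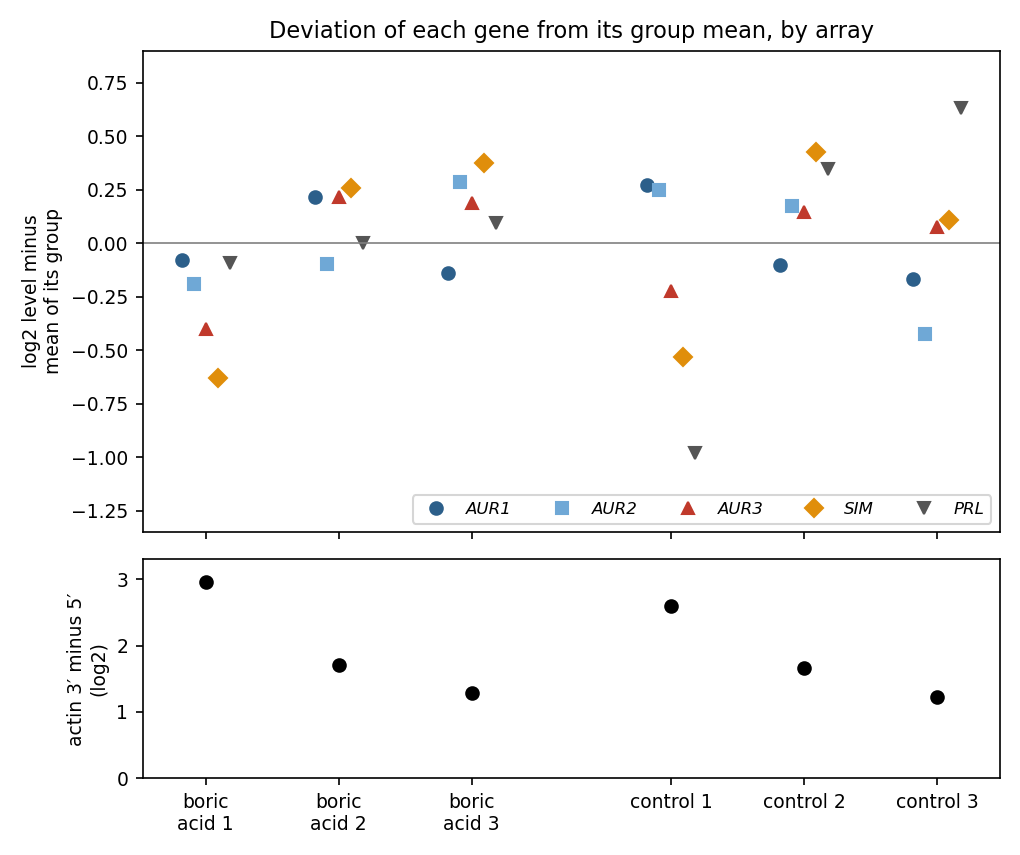
The upper panel shows the log2 level of each gene minus the mean of its group on the same array, and the lower panel the log2 difference between the 3′ and 5′ actin probe sets, for boric acid arrays 1 to 3 and control arrays 1 to 3. SIM and AUR3 are below 0 on both arrays numbered 1, where the actin difference is 2.96 and 2.60.

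**Figure D3:**
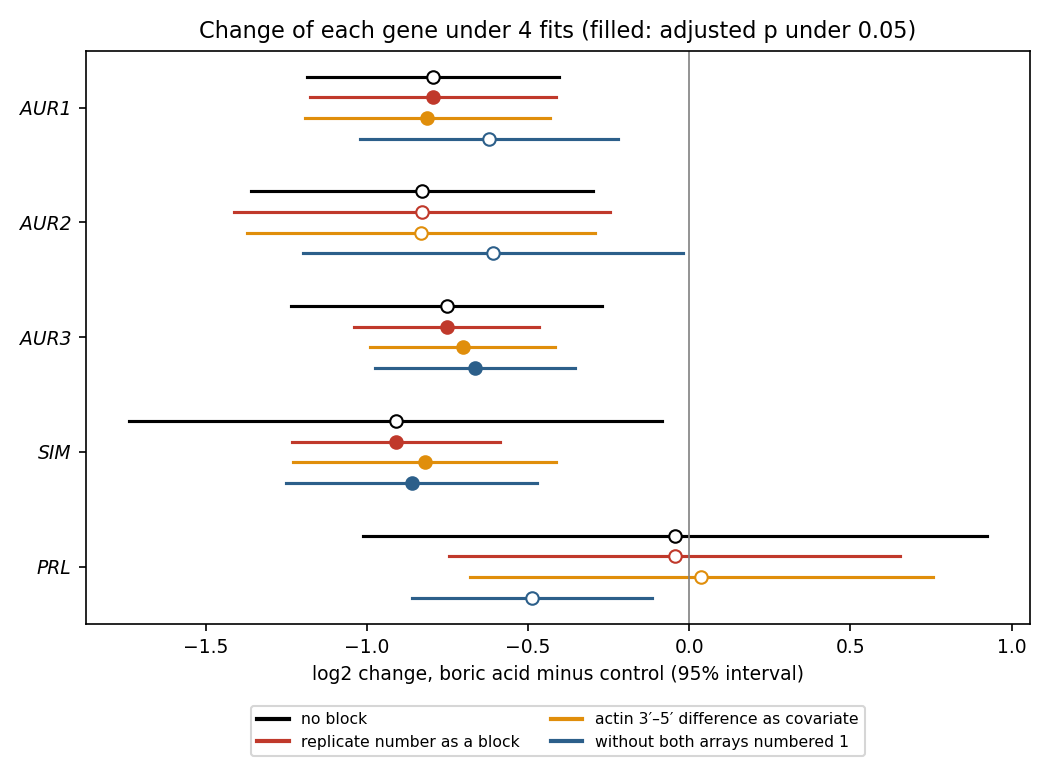
Log2 change, boric acid minus control, of each gene with its 95% interval in limma without a block, with the replicate number as a block, with the actin difference as a covariate and without both arrays numbered 1. Filled points have an adjusted p under 0.05, and AUR2 and PRL have none.

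Over probe sets, r was 0.966 to 0.992 within a group and 0.958 to 0.979 between groups. Of 20 genes found for a list of root tissue markers, EXPA7, an expansin of root hairs, was the 1 with a named probe set, at 3.47 to 4.101 in boric acid and 2.89 to 4.41 in control. Of 12 green tissue markers 2 were measured, the light harvesting genes LHCB4.1 and LHCB4.2. The log2 of their summed level ranged from 3.70 to 4.52 in boric acid and from 4.12 to 4.90 in control, and neither marker was at 0. The sum is mostly that of the brighter LHCB4.1, with a change of -0.22 ± 0.27 (SE). LHCB4.2 averaged 1.38 ± 0.32 in boric acid and 2.37 ± 0.61 in control (SD, n = 3 each), a change of -0.99 ± 0.33 (SE, limma, adjusted p = 0.187) that is larger than that of any of the 5 genes, and it passed in the fit without control 1. The part of green tissue in the lower Aurora and SIM levels was not tested. Of 22 genes found for a list of root meristem regulators 3 were measured. BBM and JKD were near 1 on average, below the array medians of 1.45 to 1.49, with changes of 0.00 ± 0.09 and -0.02 ± 0.19 (SE). Whether the meristem itself changed was not tested. For UPB1, a regulator of the switch from division to elongation in the root, the change was 0.72 ± 0.38 (SE, limma, adjusted p = 0.436).

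Genes that work with the 5 were counted in 15 lists of cell cycle genes. Of 266 genes in them, 24 had a named probe set, and 7 lists had none, among them cyclins, cyclin-dependent kinases, the relatives of SIM and the other family of kinase inhibitors. In limma 1 of these 24 genes rose and 0 fell, with p adjusted over all probe sets. Of all 13355 genes 2.71% passed, 1.62% upward and 1.09% downward. Before adjustment, 3 of the 24 were higher and 2 lower at a p under 0.05, against 8.12% and 6.81% of all genes. The median change of the 24 was -0.16, against -0.02 over all genes.

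The partners of the Aurora kinases and the spindle checkpoint had 5 measured genes, none past the threshold and none at an unadjusted p under 0.05 in limma. All 5 changes were negative, between -0.21 and -0.02, as were 53.6% of all genes. WYR, the plant relative of the inner centromere protein that anchors Aurora kinase, had a level of 0.24 to 0.46 in boric acid and 0.29 to 1.08 in control. HTR12, the centromeric histone H3, had a change of -0.19 ± 0.16 (SE). BUBR1, BUB3.1 and BUB3.2 of the checkpoint had -0.20 ± 0.14, -0.02 ± 0.17 and -0.19 ± 0.17 (SE).

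Beside PRL, the licensing list had 2 measured genes, neither past the threshold. PSF2, of the GINS complex that joins the same helicase, had a change of -0.26 ± 0.34 (SE) and, like PRL, a wide spread, with 0.74 to 1.87 in boric acid and 1.23 to 2.09 in control. GEM, which interacts with the licensing factor CDT1, had 0.07 ± 0.11 (SE). Of the 3 genes of the replication fork none passed, and ICU2, the catalytic subunit of DNA polymerase alpha, had the largest change, 0.25 ± 0.26 (SE).

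TSO1, a nuclear protein with cysteine-rich repeats that is needed for orderly cell division in flowers, was the 1 gene of the lists past the threshold. It had log2 levels of 2.49, 2.89 and 2.59 on boric acid arrays, against 1.22, 1.42 and 1.82 on control arrays. All boric acid arrays were above all controls, as in 10.1% of genes, and TSO1 rose by 1.17 ± 0.19 (SE, limma, adjusted p = 0.0311). Over the 6 fits without 1 array its change was 1.03 to 1.33, and the call was kept in 2 of them, those without control 1 or control 3. It was lost without boric acid 1, 2 or 3 or control 2.

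The other lists held no call. In the anaphase-promoting complex, which ends mitosis by protein breakdown and takes Aurora kinases and cyclins among its targets in animals, SAMBA had the largest of 3 changes, -0.42 ± 0.17 (SE, limma, adjusted p = 0.293). In the cytokinesis list KEU, a protein of vesicle fusion at the cell plate, had the largest of 3, -0.26 ± 0.16 (SE, adjusted p = 0.529). Of 12 genes found for the endoreduplication list 2 were measured. SPK1, a regulator of cell shape, had 0.33 ± 0.12 and BIN4, a component of DNA topoisomerase VI, had 0.18 ± 0.13 (SE). Both changes were positive, where those of 53.6% of all genes were negative. Of 6 histone genes HIS1-3, a linker histone of the drought response, had 0.90 ± 0.37 and HTB2, a core histone H2B, had -0.82 ± 0.26 (SE, limma, adjusted p = 0.296 and 0.179). HTB2 was below all controls on all boric acid arrays, as were 9.88% of all genes. The other measured H2B genes had smaller changes, -0.27 ± 0.23 for HTB11, -0.19 ± 0.35 for HTB1 and 0.16 ± 0.11 (SE) for HTB4.

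**Figure D4:**
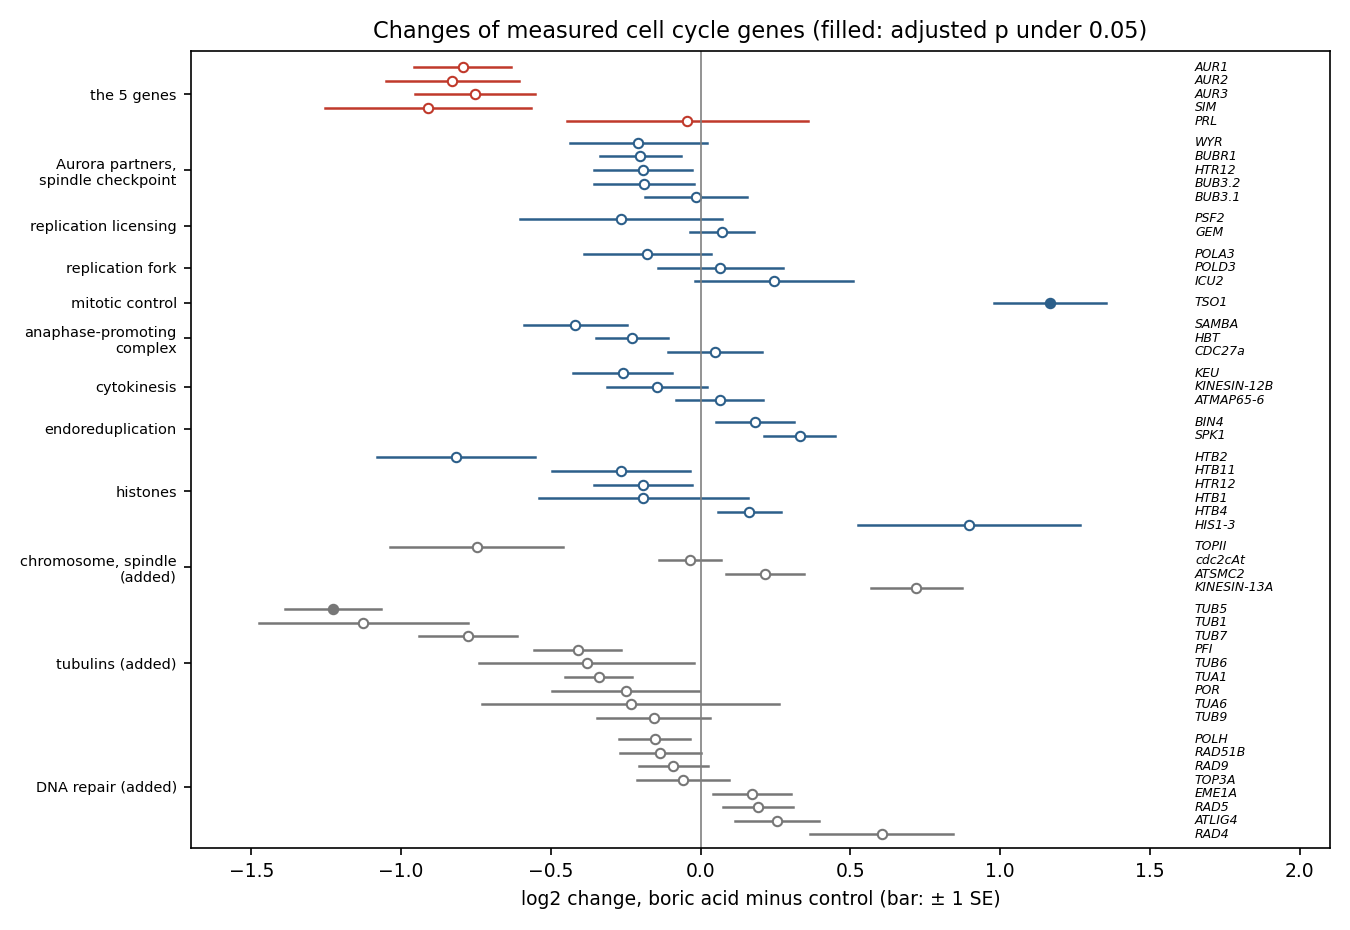
Log2 change, boric acid minus control, with a bar of ± 1 SE for AUR1, AUR2, AUR3, SIM and PRL in red, the measured genes of the cell cycle lists in blue and of the added lists in grey. Filled points are past an adjusted p of 0.05, which holds for TSO1 (1.17) and TUB5 (-1.23).

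Further lists were formed from gene names after the table had been opened. Of 4 genes listed for chromosome structure, microtubule motors and a cdc2-like kinase none passed. That kinase gene, cdc2cAt, was not in the list of cyclin-dependent kinases above. It averaged 0.15 in boric acid and 0.19 in control, with a change of -0.03 ± 0.10 (SE). TOPII, the topoisomerase that untangles sister chromatids, had -0.75 ± 0.29 (SE, limma, adjusted p = 0.262), with 1.41 to 1.53 in boric acid and 1.56 to 2.74 in control. KINESIN-13A, a microtubule motor protein, had 0.72 ± 0.15 (SE, adjusted p = 0.0640) and rose with the replicate block (adjusted p = 0.0298), in which 4.63% of genes were called higher.

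Tubulins form the spindle on which Aurora kinases act, and also the microtubules of cells that do not divide. Of 9 measured tubulin and tubulin folding genes 1 fell and 0 rose in limma, against 1.09% and 1.62% of all genes. With the block 3 fell, where 3.2% of all genes were called lower. All 9 changes were negative, as were 53.6% of those of all genes, and their median was -0.38, against -0.02 over all genes. On all boric acid arrays 5 of the genes were below all controls, as were 9.88% of all genes. TUB5 had 4.11, 4.63 and 4.45 on boric acid arrays, against 5.51, 5.77 and 5.60 on control arrays, and fell by 1.23 ± 0.16 (SE, adjusted p = 0.0172). Leaving out 1 array gave -1.345 to -1.08, and the call was kept without boric acid 1 or control 1 and lost without each of the other 4 arrays. TUB7 and TUB1 had changes of -0.78 ± 0.16 and -1.13 ± 0.35 (SE, adjusted p = 0.0621 and 0.165), and both fell with the block (adjusted p = 0.0150 and 0.0354). TUB1 was lowest on boric acid 1 at 3.25, the array with the largest actin difference.

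Of 8 DNA repair genes none passed in limma and 1 was at an unadjusted p under 0.05. That was RAD4, which recognises damage in nucleotide excision repair, with 0.60 ± 0.24 (SE, adjusted p = 0.271). Of 2 genes of epidermal fate, listed because SIM is known from leaf hairs, neither passed. TRY, an inhibitor of hair fate in leaves, was close to background and had a change of -0.14 ± 0.11 (SE). GIS, a regulator of leaf hair formation, had 0.10 ± 0.14 (SE).

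Profiles over the 6 arrays were compared with those of 6923 other genes with a mean level of at least 1. All values here are Pearson's r over 6 arrays that share the treatment difference and the array-to-array differences described above, so they are given as a description. Genes picked for such likeness tend to share the treatment difference of the gene they resemble, and their changes are no separate evidence of it. With AUR1, the r was 0.83 for AUR2 and 0.75 for AUR3, at places 423 and 711 of the genes most like AUR1. SIM was at place 21 for AUR3 with an r of 0.97, nearer than either of the other Aurora genes. PRL had -0.28 with AUR1 and 0.48 with SIM.

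The genes most like AUR1 were RALFL27, of the family of rapid alkalinization factor peptides, AT5G14970, AT5G48290, AT4G15830 and PUB22, a U-box ubiquitin ligase, at r of 0.988 to 0.997. RALFL27 averaged 2.30 ± 0.36 in boric acid and 4.25 ± 0.53 in control (SD, n = 3 each) and fell by 1.95 ± 0.30 (SE, limma, adjusted p = 0.0275). PUB22 and AT5G48290 also fell, by 0.87 ± 0.16 and 1.55 ± 0.29 (SE, adjusted p = 0.0443 and 0.0475). RALFL27 and PUB22 kept their call in the fit without control 1 and lost it without any other array, and AT5G48290 kept it without control 1 or control 3 only. For AUR2 the nearest were AT5G62610, AT4G13440, NCLPP7, a subunit of a Clp protease, AT2G25920 and AT3G03360, at r of 0.969 to 0.983.

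AUR3 was most like AT1G04040, AT1G11540, AT2G28080, AT3G20230 and AT5G17160, at r of 0.986 to 0.991. Their changes lay between -1.06 and -0.58. SIM was most like AT3G26510, AT5G25280, AT3G20230, AT1G06890 and AT1G62770, at r of 0.984 to 0.992, so that AT3G20230 was near both AUR3 and SIM. Their changes lay between -1.69 and -0.08, the smallest in size being that of AT1G06890. PRL was most like AT3G54100, AT4G38940, AT1G04300, AT3G47610 and AT5G17650, at r of 0.982 to 0.998. None of their changes was over 0.19 in size.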

How the data were processed

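The authors deposited 1 log2 value per probe set and array, made with RMA, per the submitters' processing notes, which give no version or parameters. The labels' protocols name Trizol extraction and a kit that labels RNA from its 3′ end, so a probe set reads mainly the end of a transcript. Arrays have no sequencing depth, and their number limits the precision. Of 22810 probe sets 64 controls were set aside. Names came from the array's annotation through gene IDs of RefSeq's TAIR10.1 table. Of the rest, 13513 had 1 gene, 503 several and 8730 none, so a gene without a named probe set is not analysed here. The brightest probe set stood for a gene.

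Boric acid was compared with control in limma 3.58.1 (R 4.3.3), two-sided, with Benjamini-Hochberg adjustment over 22746 probe sets. "Rose" and "fell" mean an adjusted p under 0.05, with the block where so stated. In simulated data with 200 probe sets changed by 1 log2 unit, 38.5% were recovered, with 5 false calls. With 200 changed by 2 units, 88.5% were recovered, with 15 false calls. The simulated noise was independent between probe sets and arrays, unlike that of the real arrays, so these shares do not give the power of this comparison. Same-numbered arrays deviated from their group means together (correlations over probe sets of 0.608, 0.231 and 0.618, against -0.619 to 0.284 for different numbers), while the meaning of the numbers is not given in the sources used here. The block is therefore given where it changes a call. P-values measure the spread between these samples.

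Genes and lists were chosen with earlier results of these data known. Named are the 5 genes, for each list up to 4 genes past the threshold or else the 1 with the largest change, and the 5 genes most like each of the 5. The other list genes named were chosen after their values were seen.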

Additional observations from a re-analysis of the deposited data

How the results depend on the processing

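AUR1, AUR2, AUR3 and SIM kept a negative change in all 15 alternatives run for each. In most of these the sign was fixed beforehand. Every boric acid array was below every control array, so leaving out arrays could not turn it. The block, limma-trend and the filter on low values leave the change itself as it was. With the replicate block the changes were the same (-0.79 for AUR1, -0.75 for AUR3 and -0.91 for SIM) and these 3 passed. They also passed with the actin covariate (-0.81, -0.70 and -0.82), and AUR3 and SIM passed without both arrays numbered 1 (-0.66 and -0.86). These fits called more probe sets lower over the whole array, against 304 of 22746 in the main fit. The counts were 876 with the block, 789 with the covariate and 675 without the arrays numbered 1. Leaving out 1 array gave -0.90 to -0.66 for AUR1, -1.04 to -0.70 for AUR2, -0.86 to -0.55 for AUR3, -1.18 to -0.60 for SIM and -0.54 to 0.27 for PRL, none past the threshold. PRL was positive with the actin covariate (0.037) and without boric acid 1 (0.0027), control 2 (0.13) or control 3 (0.27). It was also positive without both arrays numbered 2 (0.13) or 3 (0.22), both added after the data were seen. Without both arrays numbered 1 it had -0.49 ± 0.15 (SE, limma, adjusted p = 0.128). The cause of these differences was not tested. The count of 740 probe sets became 2081 with the block, 1881 with the covariate and 1604 without the arrays numbered 1, and 70 to 1129 without 1 array (70 without boric acid 2, 143 without control 2, 201 without boric acid 3, 277 without control 3, 349 without boric acid 1 and 1129 without control 1). It was 0 in limma without the arrays numbered 2 or 3, with 2060 and 2524 at an unadjusted p under 0.05, in fits of 4 arrays. The count of cell cycle list genes, 1, was 0 in those fits and 0 to 1 without 1 array. Quantile normalization, median centring, limma-trend and the filter on low values changed no call of the 5 genes.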
